A study of Mus musculus with 4 samples.

Results

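The small leucine-rich proteoglycans are a family of secreted matrix proteins, and 10 of their genes were examined among the 47643 genes of the table: Bgn, Dcn, Aspn, Fmod, Lum, Prelp, Omd, Ogn, Epyc and Podn. The members were taken by gene symbol from the authors' deposited comparison of TdTomato-positive with TdTomato-negative cells of the mouse femoral periosteum, the cell layer on the outer bone surface, and each symbol matched 1 row. Both groups came from the same double heterozygous mice, which carried the Sox9CreErt2 allele (Sox9tm1(cre/ERT2)Haak), in which the Sox9 locus drives a tamoxifen-dependent Cre recombinase, and the TdTomato reporter (Gt(ROSA)26Sortm14(CAG-tdTomato)Hze). Tamoxifen was injected 3 times into all mice, 100 µL of 20 mg/mL with 48 h between doses, and unfractured femora were harvested 2 weeks after the final dose. The label therefore marks cells that expressed the Cre around the time of tamoxifen and their descendants, not cells that express Sox9 at harvest, and cells that escaped recombination are in the negative group. There were 2 TdTomato-positive and 2 TdTomato-negative libraries, 1 of each from each of 2 collections, and about 10000 cells of each kind came from 18 femora of 9 mice. Animals were pooled, so every p-value measures at most the spread between libraries. The sources used here give no age for the mice.

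Proteins of this family have a core of leucine-rich repeats, and most carry chondroitin, dermatan or keratan sulfate chains. They bind fibrillar collagen, set the width and spacing of its fibrils, and hold growth factors such as TGF-beta in the matrix. They are known products of the fibroblasts, tendon cells, chondrocytes and osteoblasts that build connective tissue, and are abundant in bone and its covering. By sequence they fall into classes: biglycan (Bgn), decorin (Dcn) and asporin (Aspn) in class I, fibromodulin (Fmod), lumican (Lum), Prelp and osteomodulin (Omd) in class II, osteoglycin (Ogn) and epiphycan (Epyc) in class III, and podocan (Podn) in a further class.

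The deposited table has no column per library, but its group means, maximum and log difference fix the 4 library values of each gene, which are given here as RPKM, reads scaled to depth and to the kilobases of gene span (introns included). The values imply depths of 32.0 and 41.6 M reads for positive and of 17.0 and 74.0 M reads for negative libraries, which are called by group and depth because no value carries a collection number. In 5 members (Lum, Omd, Ogn, Epyc and Podn) the values were tied to their libraries in both groups. In the other 5 the negative values were tied, but the positive pair can be assigned in either order. The assignment in which the positive libraries differ less is given first and the other beside it. If every untied gene were switched at once, gene reads would sum to 105% of the depth of the 41.6 M positive library. In the 74.0 M negative library they would sum to 215%. The other assignment thus cannot stand for all genes together, though any single gene may have it.
The sort and the make-up of the libraries bear on every result below. Sox9 stood at 16.4 and 4.51 RPKM in positive libraries, against 3.32 and 0.0244 RPKM in negative libraries. Col2a1, the main cartilage collagen, stood at 94.6 and 68.7 RPKM (52.8 and 123 RPKM in the other assignment), against 0.219 and 0.00232 RPKM. The 7 tendon and fibroblast markers summed to 133 and 24.4 RPKM in positive libraries (80.2 to 133 and 24.4 to 93.7 RPKM over the assignments), against 30.2 and 0.0471 RPKM in negative libraries, with none at 0 reads. Osteoblast markers, also 7 genes with none at 0 reads, summed to 4449 and 1588 RPKM in positive libraries (1276 to 4449 and 1588 to 5719 RPKM), against 384 and 1.60 RPKM in negative libraries (275 to 384 and 1.60 to 473 RPKM). The limit of 473 RPKM comes from Bglap alone, at 0.439 or 471 RPKM in the 74.0 M negative library. Negative values of the other osteoblast markers are tied, with Bglap2 at 78.8 and 0.258 RPKM and Ibsp at 5.94 and 0.0407 RPKM. Neutrophil markers, 7 genes all detected in all 4 libraries, stood at 8922 and 7951 RPKM in positive libraries (3427 to 8922 and 7951 to 15105 RPKM), against 10367 and 24740 RPKM in negative libraries (6807 to 10367 and 24740 to 40261 RPKM). Thus the negative library of 74.0 M reads was nearly without tendon and fibroblast markers and had the highest neutrophil sum. The negative one of 17.0 M reads held both kinds of marker. Single neutrophil markers did not all follow the sum. Among those tied to libraries, Ngp shared only its peak with the sum, at 4770 RPKM in the 74.0 M negative library. Elane and Camp peaked instead in the 41.6 M positive library, at 785 and 1722 RPKM. Their levels in the 74.0 M negative library were 320 and 1234 RPKM. In the 32.0 M positive library Ngp, Elane and Camp stood at 470, 46.3 and 244 RPKM, and Ngp had 1972 RPKM in the 41.6 M positive one. These tied genes were thus lower in the 32.0 M positive library, unlike the sum in the assignment given first. The part of these marker differences in the results on the proteoglycan genes was not tested. In bulk libraries such as these, fewer cells of a type and less RNA per cell cannot be told apart.

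The 10 genes together took 1.52% of the depth in the positive library of 32.0 M reads and 0.264% in that of 41.6 M reads, against 0.415% in the negative one of 17.0 M reads and 0.000581% (430 reads) in that of 74.0 M reads. Exact 95% binomial intervals, which cover counting error only, ran from 1.518% to 1.526%, from 0.263% to 0.266%, from 0.412% to 0.418% and from 0.000527% to 0.000639% in the same order. With the other assignment of the 5 untied pairs the positive shares were 0.405% and 1.72%. So with all 5 pairs kept or all switched together, 1 positive library held more reads of these genes than the other. The poorer positive library then did not exceed the richer negative one. Each pair can be assigned on its own, and mixed orders were not summed, so these shares do not settle whether the groups overlap. The negative library of 74.0 M reads was far below the other 3.

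None of the 10 members passed an FDR of 0.05 in the authors' deposited table, in which 3 of all 47643 genes (0.0063%) did, and the deposited FDR was 1.00 for each member. Without adjustment, 8 of 10 had a deposited p under 0.05 and a higher log mean in positive cells. The same held for 0.598% of all genes, and for 1.58% of the 17199 genes that reached 10 reads in 2 or more libraries. The 2 positive values exceeded the 2 negative values, whichever assignment was used, in 2 of 10 members (Omd and Epyc) and in 15.5% of those 17199 genes. The small unadjusted p-values of the members thus came with overlapping groups in 7 of these 8 genes, Omd being the exception. This overlap takes no account of the collections that positive and negative libraries share. If the positive library of 32.0 M reads shares its collection with the negative one of 17.0 M reads, all tied members were higher in positive cells in both collections. These are Lum, Omd, Ogn, Epyc and Podn, and in the other pairing only Omd and Epyc were. The share of all genes that do so was not counted, so these counts cannot be read as particular to the members. Among the 271 of the 17199 genes that were higher with a deposited p under 0.05, 175 (64.6%) had groups that did not overlap.

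**Figure D1:**
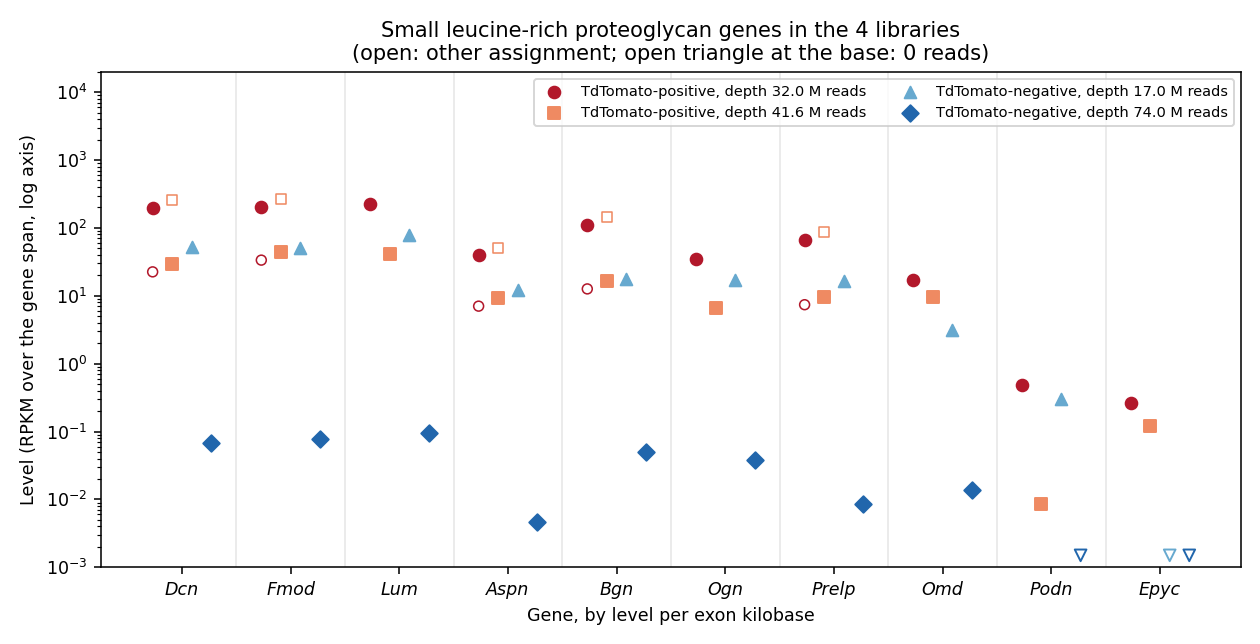
Level of each member in the 4 libraries, in RPKM over the gene span on a log axis, with positive libraries left of negative ones. Filled symbols are the assignment given first, open circles and squares are the other assignment of untied positive values, and open triangles at the base are 0 reads. In 8 members the negative library of 17.0 M reads lies between the positive libraries and above the other negative one, as in 15.3% of the 17199 genes with 10 reads in 2 libraries. Only Omd and Epyc have no overlap between the groups.

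Of the class I genes, decorin had the most reads. Decorin (chromosome 10, 97479500 to 97518162, plus strand, mm10) carries a single dermatan or chondroitin sulfate chain, binds collagen I and restrains TGF-beta. It stood at 195 and 29.4 RPKM in positive libraries (22.5 and 254 RPKM in the other assignment), against 51.5 and 0.0689 RPKM in negative libraries. These levels rest on 240865 and 47230 reads against 33821 and 197 reads. The negative library of 17.0 M reads lay between the positive ones, so the groups overlapped. The ratio of mean RPKM was 4.35 (5.36 in the other assignment), and the authors' deposited p was 0.00128. In limma on log2(RPKM + 1) the log2 fold of Dcn was 3.36 with an SE of 2.05 and an adjusted p of 0.501.

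Biglycan (chromosome X, 73483602 to 73495933, plus strand) is the closest relative of decorin, carries a pair of such chains and is known for its part in bone mass. It stood at 110 and 16.5 RPKM in positive libraries (12.6 and 143 RPKM in the other assignment), against 17.7 and 0.0504 RPKM in negative libraries. In the assignment given first there were 43334 and 8456 Bgn reads against 3698 and 46. The positive library of 41.6 M reads and the negative one of 17.0 M reads thus stood almost level, at a ratio of 0.933. The deposited p of Bgn was 0.00128, and its ratio of mean RPKM, 7.14 (8.80 in the other assignment), was above those of Dcn, Aspn, Fmod, Lum, Prelp, Ogn and Podn in the assignment given first. Its limma log2 fold was 3.31 with an SE of 1.63 and an adjusted p of 0.459. Asporin (chromosome 13, 49544443 to 49567557, plus strand), which has a run of aspartate residues and no chain, binds collagen and TGF-beta. Aspn stood at 39.4 and 9.20 RPKM in positive libraries (7.04 and 51.4 RPKM in the other assignment), against 12.3 and 0.00468 RPKM in negative libraries, on 29120 and 8843 reads in the assignment given first against 4842 and 8. Its ratio of mean RPKM was 3.94, its deposited p 0.00497 and its limma adjusted p 0.481, again with overlapping groups.

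Of the class II genes, fibromodulin and lumican were the most abundant in the assignment given first. Fibromodulin (chromosome 1, 134037254 to 134048277, plus strand) carries keratan sulfate and directs collagen crosslinking in tendon. Fmod stood at 206 and 43.7 RPKM in positive libraries (33.5 and 268 RPKM in the other assignment), against 51.2 and 0.0784 RPKM in negative libraries, on 72452 and 20040 reads in the assignment given first against 9573 and 64. Its deposited p, 0.000736, was the lowest of the 10, and its limma adjusted p was 0.468. Lumican (chromosome 10, 97565501 to 97572703, plus strand), the keratan sulfate proteoglycan needed for a clear cornea, is also made by bone and tendon cells. All its values are tied to libraries, at 225 and 40.7 RPKM in positive libraries, against 79.5 and 0.0957 RPKM in negative libraries, on 51816 and 12185 reads against 9722 and 51. The Lum level in the negative library of 17.0 M reads was 1.95 times that of the positive library of 41.6 M reads and below that of the other positive library. Its mean was 133 ± 130 RPKM in positive cells and 39.8 ± 56.2 RPKM in negative cells (SD, n = 2 each), so the spread within each group was about as large as the mean. The deposited p of Lum was 0.00192 and its limma adjusted p 0.518.

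Prelp (chromosome 1, 133910304 to 133921414, minus strand) binds heparan sulfate and collagen and stood at 66.4 and 9.65 RPKM in positive libraries (7.39 and 86.5 RPKM in the other assignment), against 16.8 and 0.00851 RPKM in negative libraries, on 23568 and 4462 reads in the assignment given first against 3166 and 7. Its deposited p was 0.00373 and its groups overlapped. Osteomodulin (chromosome 13, 49582766 to 49592609, plus strand) is a keratan sulfate proteoglycan of bone with an acidic tail that binds mineral. Omd stood at 17.1 and 9.51 RPKM in positive libraries, against 3.08 and 0.0137 RPKM in negative libraries, on 5391 and 3895 reads against 515 and 10 reads. All 4 values are tied, and the groups did not overlap, the lower positive value being 3.09 times the higher negative one. The positive libraries also differed from each other by only 1.80 times, against 4.29 to 6.88 times for the 5 untied genes in the assignment given first, 5.54 times for Lum and 5.19 times for Ogn. Its mean was 13.3 ± 5.39 RPKM in positive cells and 1.55 ± 2.17 RPKM in negative cells (SD, n = 2 each). Its ratio of mean RPKM was 8.61, its deposited p 0.00233 and its limma log2 fold 2.76 with an SE of 0.77. The unadjusted limma p of Omd was 0.0170 and the adjusted p 0.443. It was the only one of the 8 members in limma with an unadjusted p under 0.05 in that direction, as 500 of the 6860 genes tested (7.29%) were, and at an adjusted p under 0.05 limma called 0 of the 6860 (0.0%), with 768 at an unadjusted p under 0.05 in either direction.

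In class III, osteoglycin (chromosome 13, 49608071 to 49624500, plus strand), a small matrix protein first isolated from bone, had the weakest difference of the abundant members. Ogn stood at 34.5 and 6.66 RPKM in positive libraries, against 17.0 and 0.0387 RPKM in negative libraries, on 18120 and 4549 reads against 4736 and 47. Its level in the negative library of 17.0 M reads was 2.55 times that of the positive library of 41.6 M reads. The ratio of mean RPKM was 2.42, the deposited p 0.0229 and the limma log2 fold 1.93 with an SE of 1.55 and an adjusted p of 0.581. With the negative library of 74.0 M reads left out, the limma log2 fold was -0.12, so the direction of Ogn rested on that library. Epiphycan (chromosome 10, 97644068 to 97682454, plus strand), known from growth plate cartilage, was low. Epyc had 323 and 195 reads in the positive libraries, at 0.263 and 0.122 RPKM, against 0 and 0 reads in negative libraries. By counting error alone, a count of 0 allows up to 3 reads, or 0.0046 and 0.00106 RPKM in the negative libraries. The observed positive mean of Epyc was 68.1 times the mean of these limits. That fold takes no account of the spread between libraries. Epyc was under the level of 1 RPKM in 2 libraries that limma required, and its deposited p was 0.305.

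Podocan (chromosome 4, 108014791 to 108096445, minus strand), named after the podocytes of the kidney, was the member with the smallest log2 difference of log means. Podn had 1257 and 29 reads in positive libraries, against 425 and 0 reads in negative libraries, or 0.482 and 0.00854 RPKM against 0.307 and 0 RPKM. The positive library of 41.6 M reads was thus below the negative one of 17.0 M reads by far more than in any other member. Its log2 difference of log means was 0.28 and its ratio of mean RPKM 1.60, with a deposited p of 0.847. The log2 ratio of its deposited group means was -0.28. In that ratio genes without reads in any library, such as Mir3966, stand at -0.39, so a negative sign there does not mean lower in positive cells. The listed span of 81655 bases reaches 64491 bases upstream of the RefSeq start site and overlaps Scp2 on the same strand, so the RPKM of Podn is divided by a long span and its reads may be shared with Scp2.

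Levels can be ordered between genes only per length, so reads were also divided by the exon length of each gene in GENCODE M21. On this exon scale, in the assignment given first, decorin was the highest of the 10 in every library, at 1291 and 194 RPKM in positive libraries, against 341 and 0.456 RPKM in negative libraries. This placed Dcn at rank 30 and 170 in positive libraries, against rank 77 and 12260 in negative libraries, among 17141 genes. Fibromodulin and lumican held the next places in every library. In positive libraries Fmod had 686 and 146 RPKM and Lum 662 and 120 RPKM, whereas in negative libraries Fmod had 171 and 0.262 RPKM and Lum 234 and 0.282 RPKM. Fmod was thus above Lum in both positive libraries and below it in both negative ones, a difference that was not tested and that depends on the assignment. In the other assignment Dcn had 149 and 1681 RPKM in positive libraries, and Lum, at 662 RPKM, stood above it in the one of 32.0 M reads. Under either assignment Epyc and Podn were the lowest in all 4 libraries, and for Bgn, Ogn and Prelp, which in the positive library of 32.0 M reads had 222, 221 and 204 RPKM in the assignment given first, the order changed from library to library.

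The mix of the members within each library can be read against Lum, whose values are tied. Ogn was lower relative to Lum in both positive libraries, at 35.0 and 37.3 reads for every 100 Lum reads, against 48.7 and 92.2 in negative libraries. Omd showed no order by group, at 10.4 and 32.0 reads per 100 Lum reads in positive libraries, against 5.30 and 19.6 in negative libraries. Epyc had 0.623 and 1.60 reads per 100 Lum reads in positive libraries, against 0 and 0 in negative libraries, and Podn had 2.43 and 0.238, against 4.37 and 0. The ratios of the library of 74.0 M reads rest on 51 Lum reads and are imprecise, whereas 9722 Lum reads stand behind those of the negative library of 17.0 M reads. The untied members depend on the assignment. Dcn had 465 and 388 reads per 100 Lum reads in positive libraries in the assignment given first, close to the 348 and 386 of negative libraries, but 53.7 and 3352 in the other. Fmod likewise had 140 and 164 in positive libraries (22.8 and 1008 in the other assignment), against 98.5 and 125 in negative libraries, and Bgn had 83.6 and 69.4 (9.61 and 603), against 38.0 and 90.2. The even mix across libraries in the first assignment is therefore no measurement of its own, since that assignment was chosen for the smaller difference between libraries.

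**Figure D2:**
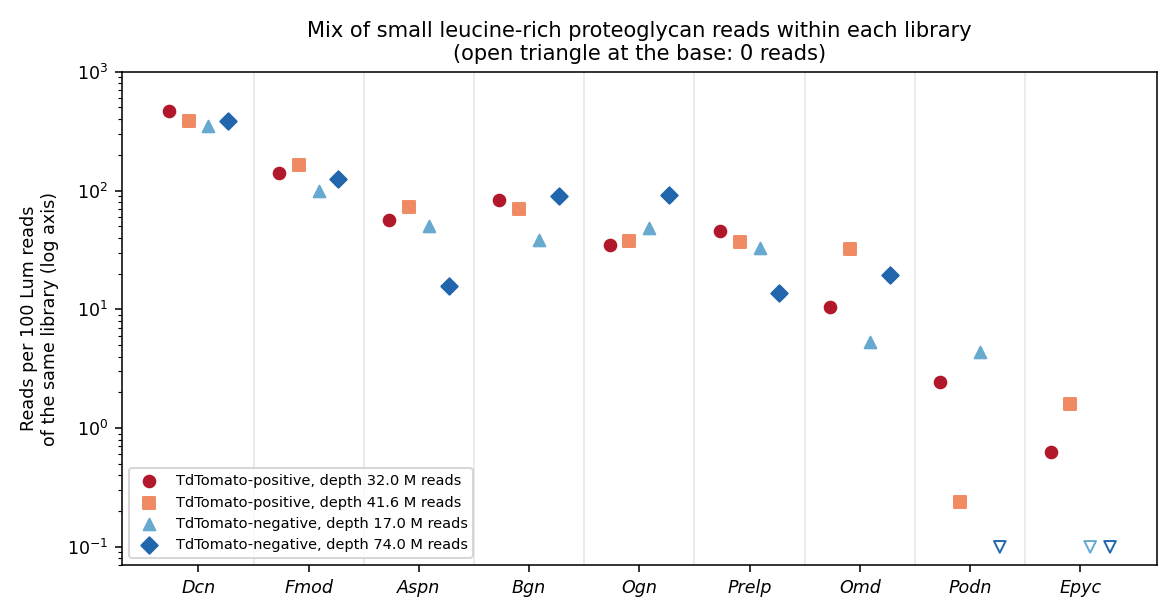
Reads of each member per 100 Lum reads of the same library on a log axis, in the assignment given first, with positive libraries left of negative ones and open triangles for 0 reads. Dcn lies between 348 and 465 in all 4 libraries, whereas Podn and Epyc reach 0 in at least 1 negative library.

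The size of the difference depended on how it was measured. The ratio of the deposited group means, in which depth is divided out 2 times, had a median log2 of 1.18 over the 10 members, against -0.26 over the 17199 genes with reads. In this ratio genes without reads in any library, such as Mir3966, stand at a log2 of -0.39, so its sign does not mark the direction. The ratio of mean RPKM had a median log2 of 2.12 over the 9 members with negative reads, against 0.13 over all such genes. The difference of log means, the authors' estimate, had a median log2 of 4.29, against 0.02. It gives the lowest library of a group the same weight as the highest, and the negative library of 74.0 M reads was the lowest, or level with it at 0, for all 10 genes. The members were positive by this last measure in 10 of 10 genes, whereas 51.0% of all genes with reads were. The deposited ratio was above 1 in 9 of 10 members, all but Podn, and in 35.9% of all genes with reads. Genes without reads fall below 1 in that ratio, so its counts do not give the direction.

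**Figure D3:**
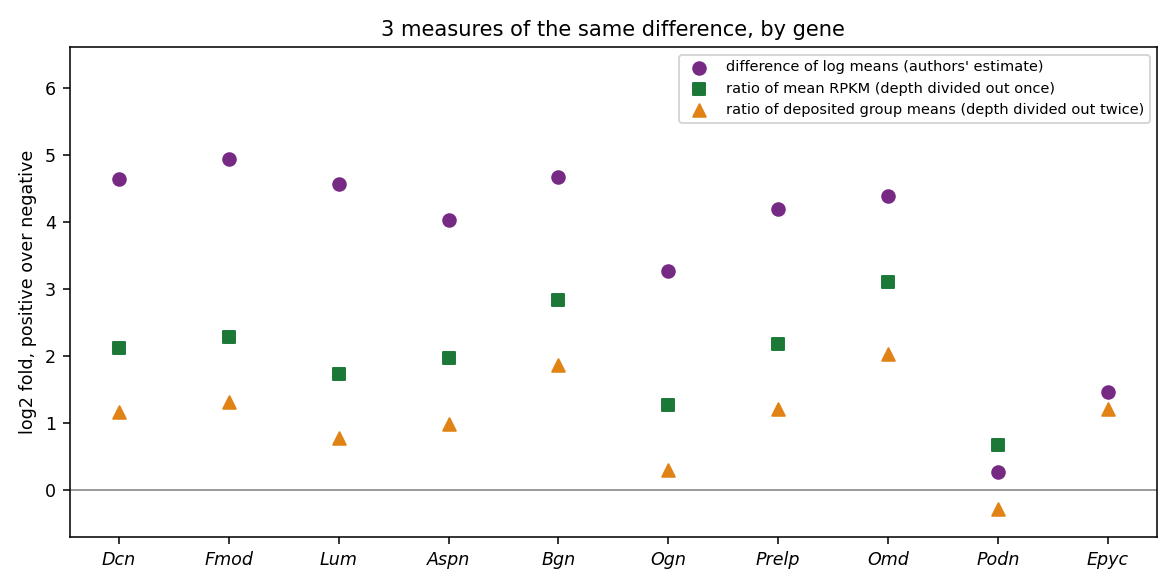
Log2 fold of positive over negative cells for each member by the difference of log means (circles), the ratio of mean RPKM (squares) and the ratio of the deposited group means (triangles). For Dcn these are 4.64, 2.12 and 1.16, and Podn falls on both sides of 0. Genes without reads in any library stand at -0.39 on the scale of the triangles.

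The folds depended most on which negative library was kept. With the negative library of 74.0 M reads left out, Dcn had a limma log2 fold of 0.55 and Lum one of 0.27. With that of 17.0 M reads left out, the same 2 folds were 6.17 and 6.47. Omd changed least, with 1.76 and 3.77 under the same 2 omissions. The group left with a single library is assumed in these fits to vary like the other, and none of the 6860 genes was called in any of them, so the calls say nothing of the members. With the negative library of 17.0 M reads left out, the groups did not overlap in 10 of 10 members, against 28.2% of the 17199 genes under the same omission. With the positive library of 41.6 M reads left out this held for 5 of 10 members, against 31.9% of genes. It held for 2 of 10 members without the positive library of 32.0 M reads, against 25.2% of genes, and for 2 of 10 without the negative one of 74.0 M reads, against 33.2% of genes.

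**Figure D4:**
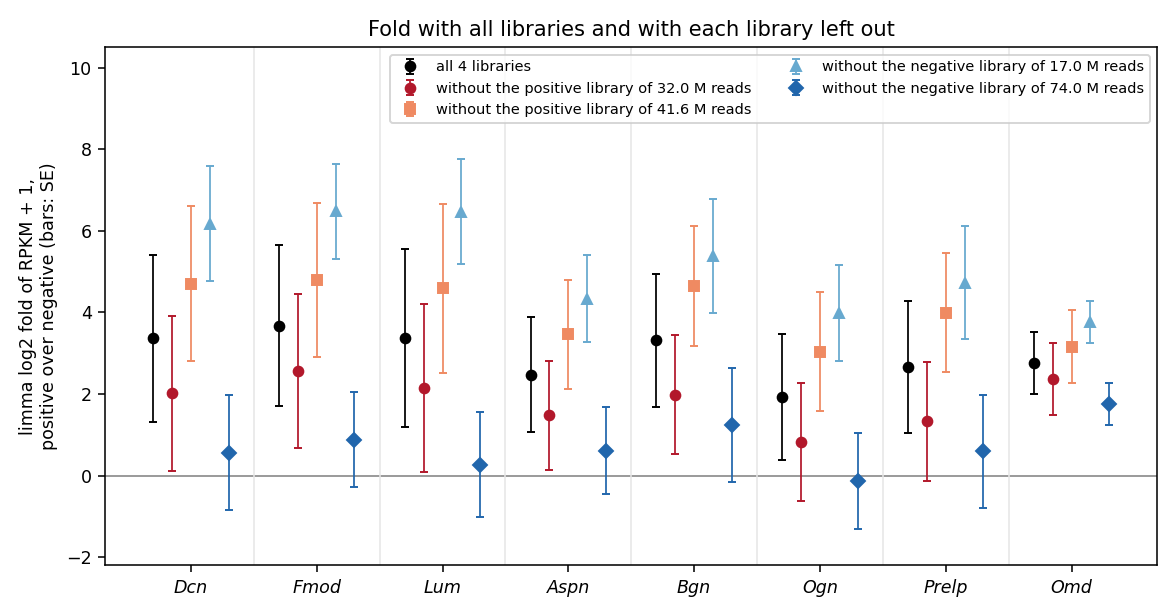
Limma log2 fold of RPKM + 1, positive over negative cells, for the 8 members tested, with all 4 libraries and with each library left out; bars are SE. The folds without the negative library of 74.0 M reads lie under 1 for all but Bgn and Omd, and those without the one of 17.0 M reads are the highest for every gene.

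Several members are neighbours in the genome. Aspn, Omd and Ogn lie in a row on the plus strand of chromosome 13, 15208 and 15461 bases apart, beside Ecm2, another leucine-rich matrix gene. Omd did not overlap between groups, whereas the genes on both of its sides did. Ecm2, 11653 bases upstream of Aspn, stood at 3.92 and 0.551 RPKM in positive libraries, against 1.31 and 0.00580 RPKM in negative libraries. It had the same order of libraries as Ogn and, in the assignment given first, Aspn. All 3 members lie within the span of Cenpp on the opposite strand, which is listed at 0.0104 and 0.0369 RPKM in positive libraries, against 0.0165 and 0.0487 RPKM in negative libraries, on 63 and 290 reads against 53 and 680 reads. Whether the counting used strand is not stated, so reads of overlapping genes cannot be told apart, which bears on the 8, 10 and 47 reads of Aspn, Omd and Ogn in the negative library of 74.0 M reads. On chromosome 10, Dcn, Lum, Kera and Epyc form a like row on the plus strand. Keratocan (Kera), a corneal keratan sulfate member, stood at 15.8 and 5.33 RPKM in positive libraries, against 4.70 and 0.0229 RPKM in negative libraries, and did not overlap between groups. On chromosome 1, Prelp lies 2304 bases from Optc, the gene of opticin, which had 4 and 0 reads in positive libraries, against 0 and 0 reads in negative libraries. The antisense gene Gm15851 overlaps Prelp and had 46 and 3 reads in positive libraries, against 8 and 0 reads in negative libraries.

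RefSeq (GRCm38.p6) promoters were at hand for 8 of the 10 members, Dcn and Lum being the others. The 250 bases before the start site are shown for the chromosome 13 neighbours, since they differ in how they separated the groups, and for Epyc, whose reads were found only in positive libraries. Capitals mark TATAAA, the TATA box core, ACAATG, a core bound by SOX proteins, and TGTGGT, a core bound by RUNX proteins, on either strand, so that the TATA core also appears as TTTATA, the SOX core as CATTGT, and the RUNX core as ACCACA. The windows are chr13:49544193-49544442 for Aspn, chr13:49582212-49582461 for Omd, chr13:49607765-49608014 for Ogn and chr10:97643818-97644067 for Epyc, all on the plus strand and written 5′ to 3′. The RefSeq start site lies 304 bases from the listed start of Omd and 56 bases from that of Ogn.
Aspn: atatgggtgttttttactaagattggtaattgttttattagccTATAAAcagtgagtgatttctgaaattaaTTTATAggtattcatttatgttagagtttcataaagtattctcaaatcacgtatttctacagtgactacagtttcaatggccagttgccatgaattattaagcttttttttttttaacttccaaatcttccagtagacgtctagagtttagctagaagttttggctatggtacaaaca
Omd: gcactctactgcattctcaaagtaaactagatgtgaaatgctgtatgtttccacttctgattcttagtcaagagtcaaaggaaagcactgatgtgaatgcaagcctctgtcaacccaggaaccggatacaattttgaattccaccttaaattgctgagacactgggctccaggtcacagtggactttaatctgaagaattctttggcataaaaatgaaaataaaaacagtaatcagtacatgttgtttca
Ogn: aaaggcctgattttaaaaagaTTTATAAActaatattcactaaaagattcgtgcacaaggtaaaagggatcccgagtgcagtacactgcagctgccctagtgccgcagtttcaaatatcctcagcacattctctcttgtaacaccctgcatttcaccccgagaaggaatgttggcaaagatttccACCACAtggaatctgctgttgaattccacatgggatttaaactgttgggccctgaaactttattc
Epyc: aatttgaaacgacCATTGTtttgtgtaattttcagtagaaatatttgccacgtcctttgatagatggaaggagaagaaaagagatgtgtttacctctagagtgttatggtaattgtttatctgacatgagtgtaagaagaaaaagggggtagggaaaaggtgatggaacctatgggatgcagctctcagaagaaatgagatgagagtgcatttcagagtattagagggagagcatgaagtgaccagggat
Of the 8 promoters, ACAATG was in 1 (Epyc), against 11.0% of all 27025 RefSeq promoters of this length. ACAAAG, the other SOX core searched, was in 0 of 8, against 16.5% of all promoters. TATAAA was in Aspn and Ogn, where the matches of Ogn overlap each other, against 13.0% of all promoters, and TGTGGT was in Ogn alone, against 14.2%. Omd held none of the 4. These matches describe letters only, at 178 to 237 bases before the start site apart from the TGTGGT of Ogn at 65 bases.

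Genes linked to the family were read from lists of other members, enzymes, partners and receptors, and none of them passed the deposited FDR. Of 8 other leucine-rich matrix genes, 3 were higher with an unadjusted deposited p under 0.05 (Chad, Kera and Chadl) and 4 did not overlap between groups (these and Podnl1), with a median log2 difference of log means of 2.17. Among the 17199 genes with 10 reads in 2 libraries, 1.58% were higher with such a p and 15.5% were higher without overlap. Chondroadherin (Chad), a chainless cartilage protein that binds collagen and integrins, was the highest of the list, at 825 and 89.3 RPKM in positive libraries, against 31.9 and 0.0762 RPKM in negative libraries, with a deposited p of 4.7e-06. Tsku, the lowest of the 6 with at least 10 reads in 2 libraries, stood at 0.414 and 0.0519 RPKM, against 0.326 and 0 RPKM.

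By the log2 difference of log means, the enzymes that build the chains were nearer to the median of all genes than the cores they act on. This measure adds 0.1 to each RPKM, which shrinks the difference of genes near or under that level. Several enzymes stand there, such as Chst11, at 0.0415 and 0.0257 RPKM in positive libraries, against 0.0176 and 0.0227 RPKM in negative libraries. Enzymes and cores are therefore not compared on equal terms. Of 17 genes for chain attachment and for chondroitin or dermatan sulfate, 0 had a deposited p under 0.05 and the median log2 difference of log means was 0.11. The groups did not overlap in 7 of the 17, with 5 higher and 2 lower in positive cells. Among the 17199 genes with 10 reads in 2 libraries, 2663 were higher and 2266 lower without overlap. The highest was Chst14, the sulfotransferase of dermatan sulfate, at 13.7 and 7.31 RPKM in positive libraries, against 5.05 and 0.634 RPKM in negative libraries. The lowest was Fam20b, the xylose kinase of the linker, at 0.444 and 0.315 RPKM, against 0.819 and 1.19 RPKM. The groups overlapped in neither gene, and neither deposited p, 0.111 and 0.385, passed. Of 8 genes for keratan sulfate and tyrosine sulfation, 0 had a deposited p under 0.05, with a median of 0.28, and the groups did not overlap in 1, Chst5, which was higher. They ran from Chst2, at 2.47 and 1.47 RPKM in positive libraries, against 1.53 and 0.0346 RPKM in negative libraries, to B4galt4, at 0.466 and 0.000897 RPKM, against 0.341 and 0.228 RPKM.

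Among 10 processing and partner genes, the collagen genes Col1a1, Col1a2, Col3a1 and Col6a1 were higher with an unadjusted deposited p under 0.05, and 0 of 10 had groups that did not overlap. Of the 17199 genes with 10 reads in 2 libraries, 1.58% were higher with such a p. Without overlap, 2663 of them were higher and 2266 lower. Col1a1, the highest, stood at 1290 and 154 RPKM in positive libraries (119 and 1679 RPKM in the other assignment), against 189 and 0.557 RPKM in negative libraries. Col1a1 thus shared with 8 of the proteoglycan genes the order in which the negative library of 17.0 M reads lies between the positive ones and above the other negative one. This order was found in 15.3% of those 17199 genes. Tll1, a protease relative of Bmp1, was the lowest, at 0.00376 and 0 RPKM in positive libraries, against 0.0182 and 0 RPKM in negative libraries. Of 6 receptors that bind soluble family members, 0 had a deposited p under 0.05, with a median of 0.00. The groups did not overlap in 2, Tlr2 and Tlr4, which were lower, against 2266 of those 17199 genes. Egfr was the highest, at 0.464 and 0.157 RPKM, against 0.343 and 0.00489 RPKM. Tlr2, through which soluble biglycan is known to signal in macrophages, was the lowest, at 5.60 and 18.2 RPKM in positive libraries, against 29.0 and 56.4 RPKM in negative libraries, and did not overlap between groups. Its log2 difference of log means was -2.03 with a deposited p of 0.169, and the leukocyte markers, 6 genes with none at 0 reads, summed to 88.9 and 55.4 RPKM in positive libraries (24.1 to 88.9 and 55.4 to 140 RPKM over the assignments), against 102 and 253 RPKM in negative libraries (66.9 to 102 and 253 to 405 RPKM). Their part in the Tlr2 values was not tested.

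**Figure D5:**
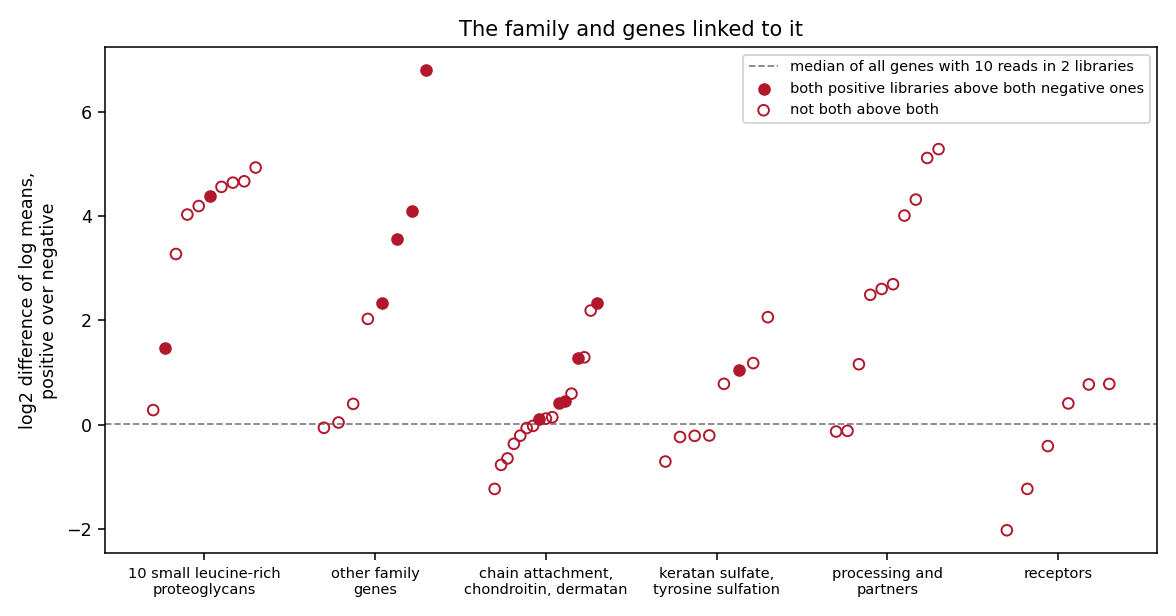
Log2 difference of log means, positive over negative cells, for the 10 members and for each linked gene; filled points are genes whose positive values exceed both negative values, whichever assignment is used. The members have a median of 4.29, with Podn lowest at 0.28, Chad is the highest point of all at 6.80, and enzymes and receptors lie on both sides of the median of all genes, 0.02 (dashed).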

How the data were processed

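RNA of sorted cells was sequenced in 4 libraries made with a low-input SMARTer kit, per the labels' protocols. Per the submitters' processing notes, STAR, Partek and the mm10 build were used, with no version given in these sources. The authors' deposited table lists 47643 genes in 29 columns. Per the file headers it holds group means as a normalized signal, a maximum and sum over libraries as a score, a natural log difference, a ratio of means, and, from a shrunken lognormal model, a p-value with its step-up FDR. The deposited signal is RPKM plus 0.1, divided again by depth and span; this was inferred from the values. The 4 library values were solved from these columns, with exactly 1 solution for each of the 47643 genes. Values were tied to libraries where they gave whole reads (within 0.01 reads plus 1e-07 of the reads, at most 0.05, or within 0.002 where 1 value was whole) or where the other order gave negative reads. This tied both groups in 11715 of the 17199 genes with at least 10 reads in 2 libraries. The depths behind the values were 17.0 to 74.0 M reads, and for the abundant members the spread between libraries exceeds the counting error.

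The main test was the authors' deposited two-sided p-value and FDR at 0.05. The alternative was limma 3.58.1 (R 4.3.3) on log2(RPKM + 1), with Benjamini-Hochberg adjustment over genes of at least 1 RPKM in 2 libraries. Library solving and limma were tested on simulated data. The labels share collection numbers between groups, but no value carries one, so both pairings were tried as a block. All members are named, with genes overlapping or next to them where they bear on a result, and the highest and lowest gene of each linked list by the log2 difference of log means among genes with 10 reads in 2 libraries. The members and lists were chosen with earlier results of these data known. Other marker sums, as ranges over the assignments, were as follows. Erythroid markers summed to 3984 to 14295 and 5192 to 18616 RPKM in the positive libraries, against 4191 to 18231 and 18274 to 79484 RPKM in the negative libraries. Endothelial markers summed to 0.901 and 1.85 RPKM, against 1.59 and 0.424 RPKM. Muscle markers summed to 66.9 to 157 and 87.2 to 205 RPKM, against 20.9 to 223 and 0.847 to 883 RPKM. The limit of 883 RPKM comes from Acta1 alone. The tied values of Ckm, Myh4 and Tnnt3 in that library were 0.0510, 0.0223 and 0.0488 RPKM. The 8 chondrocyte markers summed to 267 to 320 and 135 to 204 RPKM in the positive libraries, against 15.1 and 0.189 RPKM in the negative libraries. Matn1 was at 0 reads in 3 libraries, and Acan and Matn3 in the negative one of 74.0 M reads.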

Additional observations from a re-analysis of the deposited data

How the results depend on the processing

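The count of members called was 0 by the authors' deposited test and by every limma fit. The fit with the other assignment switches every untied gene at once. Its reads exceed the depth of the 41.6 M positive and the 74.0 M negative library, so it is not a possible data set as a whole. The 3 genes called over the whole table in the deposited test were 0 under limma with a pseudocount of 1 or 0.1, without the filter, with the other assignment, with upper quartile scaling (chosen after seeing the data), with the replicate block under either pairing, and when each library was left out (0 to 0); the cause was not tested. The median log2 fold of the members, 1.18 by the ratio of group means, was 4.51 in limma with a pseudocount of 0.1 and 4.29 by the difference of log means (chosen after seeing the data), and 0.60 to 5.06 when each library was left out. The members that did not overlap between groups, 2 of 10, were 2 to 10 when each library was left out (also chosen afterwards), against 25.2% to 33.2% of all genes with reads. The direction turned for Ogn. Its limma fold was -0.12 to 3.99 when each library was left out, lowest with the 74.0 M negative library omitted. Podn was at 0.28 by log means, 0.68 by mean RPKM and 0.10 in limma without the filter. By the deposited ratio Podn was at -0.28, where genes without reads in any library stand at -0.39. Over 80 limma fits of single members adjusted p-values ran from 0.0626 to 1.00, and from 0.340 without the block. Pairing the positive library of 32.0 M reads with the negative one of 17.0 M reads gave a correlation of deviations of 0.576, the other pairing -0.576; the block changed no call. An unadjusted p under 0.05 was found for 3 of 3 tied members (Lum and Ogn at 0.0123, Omd at 0.000834) and 914 of 3328 genes (27.5%) under the first pairing, for 1 of 3 (Omd at 0.0294) and 72 genes (2.16%) under the second, and for 258 genes without the block. The files do not say which pairing is right. Epyc and Podn had 0 reads in the deepest negative library, and limits of 0.00106 and 0.000496 RPKM follow from 3 reads there.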
